A study of Mus musculus with 8 samples.

Results

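The genes described here are *Bnip3*, *Bnip3l*, *Mgarp*, *Fundc1*, *Pink1*, *Sqstm1*, *Optn*, *Bcl2l13* and *Phb2*, which encode receptors, adaptors and a kinase of mitophagy together with a mitochondrial protein that is made under hypoxia. They were chosen by name, as 9 of the 22520 genes and assembled transcripts in the table of FPKM values (fragments scaled to the length of the transcript and to the mapped total of the library). The choice was made with results of the same comparison in view. The differences of these 9 genes between the treatments are therefore given as a description, with no test, and nothing is supported by them.

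The libraries were made from CD8+ T cells of mouse spleen, purified by negative selection and kept for 6 days under anti-CD3, anti-CD28 and IL-2, which the study describes as a persistent stimulation of the T cell receptor. From day 3, 4 cultures received 40 µM DADA (diisopropylamine dichloroacetate, an inhibitor of pyruvate dehydrogenase kinase) and 4 received its solvent, DMSO. The labels give 4 biological replicates in each group and do not say whether these came from separate mice. The study's text gives wild-type mice for this culture, and its general mouse section lists male C57BL/6J mice aged 6 to 8 weeks, without tying them to these libraries. No gene was altered in either group, so the only labelled difference is the compound.

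Mitophagy is the delivery of damaged or surplus mitochondria to the lysosome by autophagy. In the receptor route, proteins that sit in the mitochondrial membrane, such as BNIP3, NIX (the product of *Bnip3l*), FUNDC1 and BCL2L13, bind LC3 and GABARAP proteins of the growing autophagosome directly. In the ubiquitin route, the kinase PINK1 builds up on depolarized mitochondria and promotes the ubiquitination of their outer membrane, and adaptors such as p62 (*Sqstm1*) and optineurin (*Optn*) link the ubiquitin to LC3. *Bnip3* and *Bnip3l* are known targets of the hypoxia-inducible factor HIF-1, and NIX has been linked to the formation of memory CD8+ T cells.

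Promoter sequences are shown for *Bnip3* and *Mgarp*, which were among the genes with the largest differences, and for *Sqstm1*, which was abundant in both groups and differed little. The sequences are RefSeq's for GRCm38.p6, on the minus strand for the 3 genes, and are cut so that they end before every transcript start that GENCODE M21 or RefSeq places there. Capitals mark ACGTG or GCGTG, the core letters of the hypoxia response element, read on either strand.
*Bnip3*, chr7:138909520-138909756: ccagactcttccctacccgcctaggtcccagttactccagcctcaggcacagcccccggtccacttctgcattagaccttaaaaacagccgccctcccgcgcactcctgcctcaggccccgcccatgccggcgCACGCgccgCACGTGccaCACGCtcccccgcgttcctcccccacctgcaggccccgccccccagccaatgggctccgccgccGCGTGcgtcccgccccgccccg
*Mgarp*, chr3:51396739-51396797: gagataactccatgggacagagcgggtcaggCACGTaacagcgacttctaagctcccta
*Sqstm1*, chr11:50210828-50211070: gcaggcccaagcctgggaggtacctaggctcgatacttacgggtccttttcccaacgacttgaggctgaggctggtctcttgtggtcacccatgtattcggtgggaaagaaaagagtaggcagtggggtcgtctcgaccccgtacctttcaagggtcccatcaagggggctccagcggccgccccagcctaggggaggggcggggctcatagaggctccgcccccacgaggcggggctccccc

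The *Bnip3* stretch held 5 matches, of which 3 were GCGTG and 2 were ACGTG, and those 2 overlap in a single CACGTG, which is also the letters of an E-box. A single ACGTG, read on the other strand, lay in the *Mgarp* stretch, and no match lay in that of *Sqstm1*. RefSeq windows of 250 bases before to 50 bases after the start were found for 8 of the 9 genes, *Bnip3l* being the gene without an entry. Either core occurred in 6 of these 8 windows, and in 43.8% of all 32851 windows. *Pink1*, *Bcl2l13* and *Phb2*, whose differences were small, had 1 match each in their windows, as *Mgarp* had. At least 3 matches were found for *Bnip3* and *Optn*, and in 8.9% of all windows. A match of 5 letters describes the sequence only.

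All 9 genes were at 1 FPKM or more in all 8 libraries. The comparison used log2(FPKM + 1) and 10666 genes with at least 4 libraries at that level. Over these 10666, limma called 66.2% at an adjusted p-value under 0.05, with 30.9% higher and 35.3% lower in DADA-treated cells, and the median log2 fold change was -0.02. The depth, as an estimate from low FPKM values, was 13.75M to 16.5M mapped fragments with DMSO and 14.97M to 18.8M with DADA (M, mega). Among the 5 markers of CD8 T cells, all reached 1 FPKM and limma called all 5 higher, with a summed level of 711 to 742 FPKM with DMSO and 870.5 to 927.5 FPKM with DADA, and their part in the results below was not tested. None of the 3 markers of CD4 T cells, 6 of myeloid cells and 3 of NK cells reached 1 FPKM, and of 5 B cell markers only *Cd79b* did, at 2.18 to 3.47 FPKM in the 8 libraries.

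Of the 9 genes, 6 had all DADA libraries above all DMSO libraries, 2 had them below and 1 overlapped. The groups did not overlap for 60.6% of the genes tested, with DADA above for 28.4% and below for 32.2%. The differences fell into a set of 3 large ones, in *Mgarp*, *Bnip3* and *Bnip3l*, and 6 small ones. A log2 fold change of at least 1 was found in 3.59% of the genes tested, and one of at least 2 in 0.788%, and these 3 genes passed both. Since the genes were chosen on this contrast, nothing is read from the comparison of these counts with the shares over all genes. In bulk libraries, a change in the cells that express a gene cannot be told apart from a change of its RNA in each cell.

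**Figure D1:**
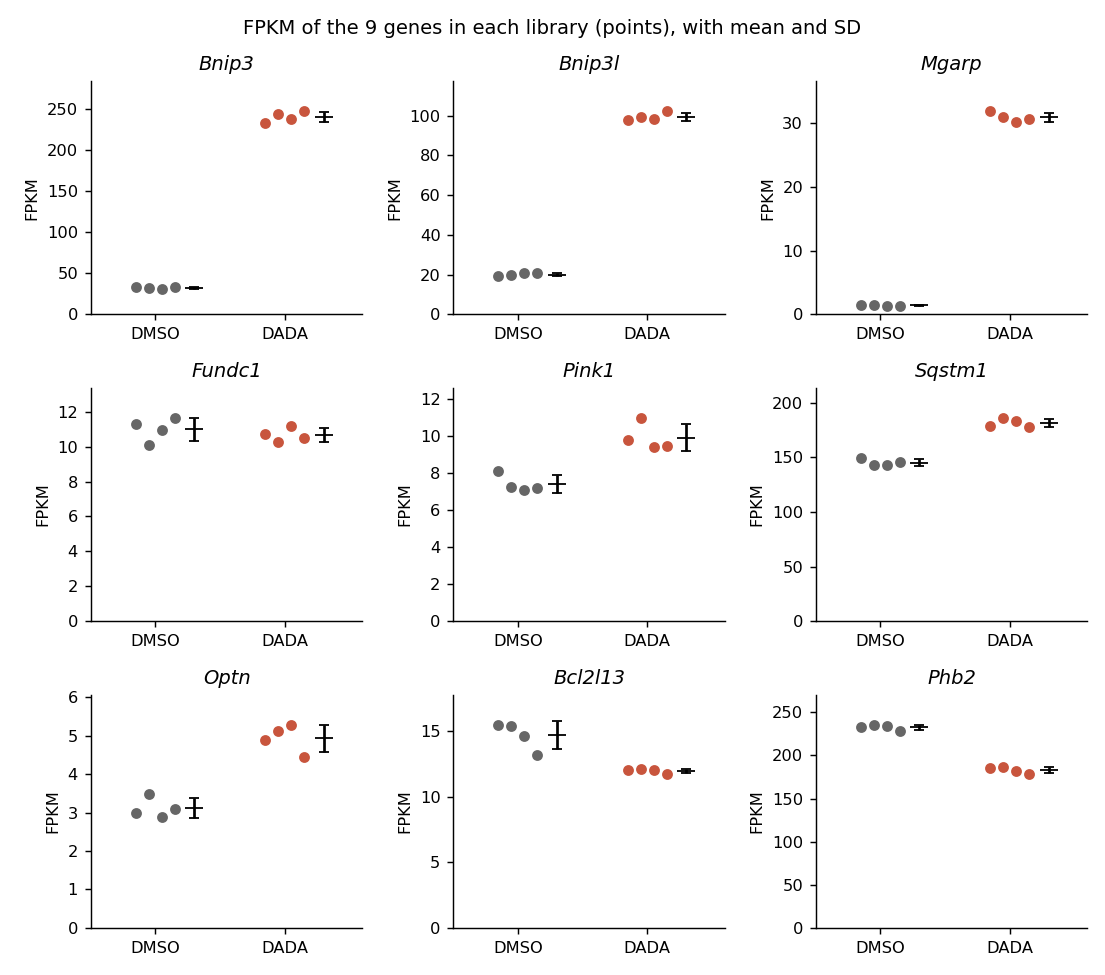
FPKM of the 9 genes in each of the 4 DMSO (grey) and 4 DADA (red) libraries, on axes that start at 0; points are libraries, and the black mark with its bar is the mean with the SD. *Bnip3*, *Bnip3l* and *Mgarp* sit far higher with DADA, and only *Fundc1* has overlapping groups.

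*Bnip3* (ENSMUSG00000078566) encodes an outer membrane receptor of the BCL2 family that is known to respond to hypoxia. It was at 33.1, 32.5, 31.0 and 33.7 FPKM in DMSO 1 to 4 and at 233, 244, 239 and 247 FPKM in DADA 1 to 4. The lowest DADA library was 6.93 times the highest DMSO library. On the log2 scale the difference was 2.85 (standard error 0.0301), and the means differed 7.40-fold. By its mean, *Bnip3* was in place 2495 of the 10666 genes with DMSO and in place 233 with DADA.

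*Bnip3l* (ENSMUSG00000022051) encodes NIX, the closest relative of BNIP3, known for the removal of mitochondria from maturing red blood cells. Its levels were 19.3, 19.6, 20.7 and 20.6 FPKM in DMSO 1 to 4 and 97.7, 99.2, 98.2 and 102 FPKM in DADA 1 to 4. The groups were far apart, with a log2 fold change of 2.25 (standard error 0.0292) and a 4.96-fold difference of the means. *Bnip3* was the more abundant of the pair in all 8 libraries. The ratio of *Bnip3* to *Bnip3l* was 1.503 to 1.717 in the DMSO libraries and 2.385 to 2.46 in the DADA libraries, so that the relative difference of *Bnip3* was the larger. Together, the pair came to 51.7 to 54.2 FPKM per library with DMSO and to 331 to 350 FPKM with DADA.

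*Bnip3l* is abundant in red cell precursors, so markers of erythroid cells were examined. Of 8 such markers, only *Epor*, the erythropoietin receptor, reached 1 FPKM in any library, at 0.557 to 1.00 FPKM with DMSO and 4.15 to 5.09 FPKM with DADA (limma, adjusted p = 2.33e-07). The sum of the 8 markers was 0.752 to 1.62 FPKM with DMSO and 4.42 to 5.49 FPKM with DADA, most of it *Epor*. *Hbb-bs*, a globin, was listed at 0 in every library, and no globin, *Alas2* or *Klf1* value reached 1 FPKM.

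*Mgarp* (ENSMUSG00000037161) encodes a mitochondrial protein, also known as HUMMR, that is induced by hypoxia and takes part in the movement of mitochondria along microtubules. It was close to the filter with DMSO, at 1.53, 1.47, 1.34 and 1.24 FPKM in DMSO 1 to 4, and at 31.8, 30.9, 30.2 and 30.7 FPKM in DADA 1 to 4. Every DADA library was at least 19.7 times every DMSO library. The log2 fold change was 3.74 (standard error 0.0466), the fifth largest increase among the 10666 genes, and the means differed 22.1-fold. With a pseudocount of 0.1, which understates the change of low genes less, the log2 fold change was 4.38. The DMSO values rest on few fragments, about 10.6 to 34.1 per library by the estimated depth and the annotated transcript lengths, and the DADA values on about 265 to 813.

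*Fundc1* (ENSMUSG00000025040) encodes an outer membrane receptor whose activity in hypoxia is set by its phosphorylation. Its values were 11.3, 10.1, 10.9 and 11.6 FPKM in DMSO 1 to 4 and 10.7, 10.2, 11.2 and 10.5 FPKM in DADA 1 to 4. The groups overlapped, with means of 10.99 ± 0.651 FPKM (SD, n = 4) and 10.7 ± 0.409 FPKM (SD, n = 4). This was the only 1 of the 9 genes without a clear separation, at a log2 difference of -0.04 (standard error 0.0471).

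*Bcl2l13* (ENSMUSG00000009112) encodes an outer membrane receptor that is regarded as the mammalian counterpart of yeast Atg32. It was at 15.5, 15.4, 14.7 and 13.2 FPKM in DMSO 1 to 4 and at 12.1, 12.1, 12.03 and 11.7 FPKM in DADA 1 to 4. All DADA libraries were lower, by 18.4% in the mean and with a log2 fold change of -0.27 (standard error 0.0485). The spread was wider with DMSO (coefficient of variation 7.25%) than with DADA (1.40%). *Bid* overlaps the end of *Bcl2l13* on the other strand, and it fell from 19.1 to 12.98 FPKM (limma, log2 fold change -0.53, adjusted p = 7.41e-06). Whether strand was used in the assignment of reads is not stated, and the part of *Bid* in the *Bcl2l13* values was not tested.

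*Phb2* (ENSMUSG00000004264) encodes prohibitin 2, which lies in the inner membrane and binds LC3 once the outer membrane has ruptured. It was the most abundant of the 9 genes with DMSO, at 233, 235, 234 and 228 FPKM in DMSO 1 to 4, and was at 185, 186, 182 and 178 FPKM in DADA 1 to 4. Each DADA library was lower than each DMSO library, and the mean was lower by 21.4%, a log2 fold change of -0.34 (standard error 0.0214). *Phb1*, which encodes the partner of PHB2 in the prohibitin ring, fell from 87.8 ± 1.69 to 70.6 ± 1.82 FPKM (SD, n = 4; limma, log2 fold change -0.31, adjusted p = 2.59e-06). The ratio of *Phb2* to *Phb1* was 2.626 to 2.677 with DMSO and 2.588, 2.59, 2.684 and 2.509 in DADA 1 to 4. DADA 1, 2 and 4 lay below the DMSO range and DADA 3 just above it, so the groups overlapped through DADA 3 alone.

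*Pink1* (ENSMUSG00000028756) encodes the kinase that marks depolarized mitochondria. It was at 8.10, 7.24, 7.05 and 7.17 FPKM in DMSO 1 to 4 and at 9.78, 10.9, 9.38 and 9.43 FPKM in DADA 1 to 4. The groups did not overlap, although DMSO 1 and DADA 2 were higher than the rest of their groups, and the log2 fold change was 0.37 (standard error 0.0578).

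*Sqstm1* (ENSMUSG00000015837) encodes p62, an adaptor that binds ubiquitin and LC3 and also takes part in the NRF2 response. It was at 149, 143, 143 and 146 FPKM in DMSO 1 to 4 and at 179, 186, 183 and 178 FPKM in DADA 1 to 4. All DADA libraries were higher, by 25.03% in the mean, and the log2 fold change was 0.32 (standard error 0.0233). *Optn* (ENSMUSG00000026672), whose product optineurin recruits the autophagy machinery to ubiquitin on mitochondria, was at 2.98, 3.49, 2.89 and 3.09 FPKM in DMSO 1 to 4 and at 4.88, 5.12, 5.28 and 4.45 FPKM in DADA 1 to 4. It was again higher in every DADA library, with a log2 fold change of 0.53 (standard error 0.0635). *Mrnip*, which overlaps *Sqstm1* on the other strand, was at 4.00 to 4.53 FPKM with DMSO and 2.79 to 3.69 FPKM with DADA. The adaptors thus differed in level, with *Sqstm1* in place 403 and *Optn* in place 8948 by their means with DMSO.

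**Figure D2:**
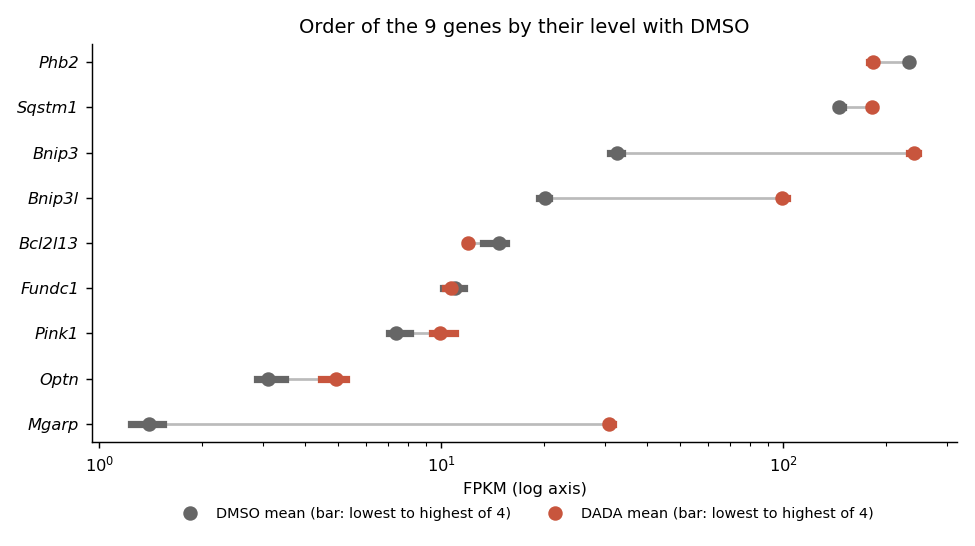
Mean FPKM of the 9 genes (points, log axis) with DMSO (grey) and DADA (red), ordered by the level with DMSO; the thick bars run from the lowest to the highest of 4 libraries. With DADA, *Bnip3* at 241 FPKM lies above *Phb2* and *Sqstm1*, and *Mgarp* lies above *Bcl2l13*, *Fundc1*, *Pink1* and *Optn*.

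FPKM is scaled to length, so the levels of the genes can be set side by side. With DMSO the order was *Phb2* (mean 233 FPKM), *Sqstm1* (145), *Bnip3* (32.6), *Bnip3l* (20.04), *Bcl2l13* (14.7), *Fundc1* (10.99), *Pink1* (7.39), *Optn* (3.11) and *Mgarp* (1.40), and no neighbours in this order had overlapping ranges. With DADA the order was *Bnip3* (241 FPKM), *Phb2* (183), *Sqstm1* (181), *Bnip3l* (99.3), *Mgarp* (30.9), *Bcl2l13* (11.99), *Fundc1* (10.7), *Pink1* (9.88) and *Optn* (4.93). The ranges of *Phb2* and *Sqstm1* overlapped there, as did those of *Fundc1* and *Pink1*. *Mgarp* moved from the last place to the fifth.

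The 9 genes summed to 465 to 474 FPKM per library with DMSO and to 764 to 784 FPKM with DADA. *Bnip3* and *Bnip3l* made up 11.1% to 11.7% of this sum with DMSO and 43.28% to 45.25% with DADA. The share of *Phb2* was 49.1% to 50.3% with DMSO and 23.05% to 24.26% with DADA, and that of *Mgarp* was at most 0.324% with DMSO and 3.92% to 4.16% with DADA. The larger sum was thus mainly that of the BNIP3 pair.

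**Figure D3:**
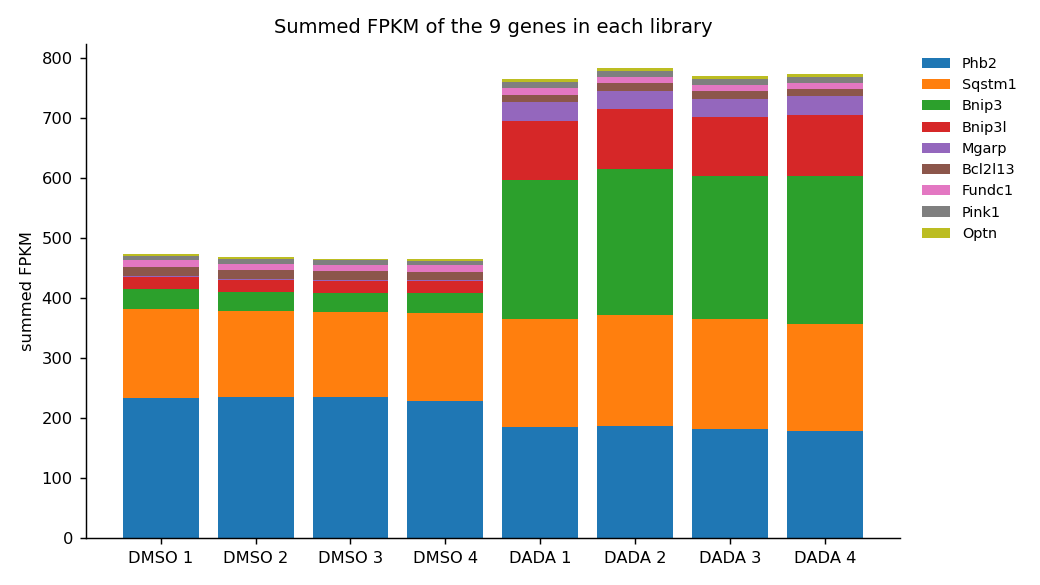
Summed FPKM of the 9 genes in each of the 8 libraries, stacked by gene. The DADA bars reach 764 to 784 FPKM and the DMSO bars 465 to 474 FPKM, and the blocks of *Bnip3* and *Bnip3l* are taller with DADA while those of *Phb2* are shorter.

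The spread between replicates differed among these genes. The coefficient of variation between libraries was 1.32% (*Phb2*) to 9.45% (*Mgarp*) with DMSO, and 1.40% (*Bcl2l13*) to 7.36% (*Pink1*) with DADA. The median over all genes tested was 4.89% with DMSO and 4.63% with DADA. *Mgarp*, *Optn*, *Bcl2l13*, *Pink1* and *Fundc1* were above it with DMSO, and *Pink1* and *Optn* with DADA.

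The genes whose pattern over the 8 libraries was most like that of each of the 9 were found by the root mean square difference of log2 values, after the DMSO mean of each gene was subtracted, among genes that averaged 5 FPKM or more. For *Bnip3* these were *Ifi209* (difference 0.0617) and *Ifi206* (0.0665), and only 5 of 8189 genes were within 0.1 of it. *Samd9l* (0.0506) and *Gbe1* (0.0636) were nearest to *Bnip3l*, with 7 genes within 0.1. For *Mgarp* they were *Irf7* (0.0893), the only gene within 0.1, and *Ifit1* (0.114). The genes with small differences had many neighbours: 282 genes lay within 0.1 of *Pink1*, with *Castor1* and *Pitpnc1* nearest, and 1685 within 0.1 of *Fundc1*, with *Trappc10* and *Relch* nearest. *Sqstm1* was nearest to *mt-Co3* and *Bach2*, *Optn* to *Cnp* and an assembled transcript, *Bcl2l13* to *Tnk2* and *Snrpd2*, and *Phb2* to *Smu1* and *Qdpr*. The pseudocount of 1 shrinks the change of low genes, so the likeness depends on level too: *Ifi206* (0.731 and 11.1 FPKM with DMSO and DADA) and *Ifit1* (0.398 and 16.9 FPKM) were below 1 FPKM in the DMSO mean and had larger relative differences than *Bnip3* and *Mgarp*. The measure mostly follows the difference between the groups.

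The other genes of the pathway were compared as lists, each gene with limma's adjusted p-value over all 10666 genes tested. Over all of these, 66.2% were called, with 30.9% higher and 35.3% lower. The share called was 65.0% of tested genes for the ubiquitin route, 41.67% for the receptor route and 58.06% for core autophagy. It was 90.91% for the other selective receptors, 91.67% for quality control and 57.14% for mitochondrial transport. In both hypoxia lists it was 100%. Counts near the share over all genes do not set a list apart. Of 21 listed partners of the ubiquitin route, 20 were tested, and 3 were higher and 10 lower, with a median log2 fold change of -0.07. *Parl*, an inner membrane protease that cleaves PINK1, fell most, from 59.3 ± 2.80 to 39.2 ± 1.38 FPKM (SD, n = 4; log2 fold change -0.59, limma, adjusted p = 4.64e-07). *Vcp*, an ATPase that extracts ubiquitinated proteins, fell from 160 to 120 FPKM (log2 fold change -0.42), and *Tomm40*, the import pore, from 85.2 to 66.3 FPKM (-0.36). *Usp30*, a deubiquitinase of the outer membrane, rose from 6.68 ± 0.305 to 8.71 ± 0.312 FPKM (SD, n = 4; log2 fold change 0.34, limma, adjusted p = 6.84e-05). *Tbk1*, a kinase of optineurin, rose from 16.1 to 18.8 FPKM (log2 fold change 0.21). *Mul1*, a mitochondrial ubiquitin ligase, had overlapping groups and rose by 0.23 on the log2 scale (limma, adjusted p = 0.0186). Its call was lost without DMSO 4, DADA 1 or DADA 2 (log2 fold change 0.19, 0.19 and 0.20) and under quantile normalization (0.15).

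Of 13 listed receptors and regulators of the receptor route, 12 were tested, and 1 was higher and 4 were lower, with a median log2 fold change of -0.05. *Bcl2l1*, which encodes BCL-XL, fell from 82.0 ± 1.19 to 53.4 ± 1.64 FPKM (SD, n = 4; log2 fold change -0.61, limma, adjusted p = 2.50e-08). *Nipsnap1* and *Nipsnap2*, whose products build up on the surface of damaged mitochondria, fell to 15.5 and 9.71 FPKM, with log2 fold changes of -0.47 and -0.54. *Rheb*, a small GTPase known as an mTOR activator and as a partner of NIX, rose from 38.7 to 49.3 FPKM (log2 fold change 0.34, limma, adjusted p = 4.56e-06). *Fkbp8*, a further outer membrane receptor, had means of 102 ± 5.67 and 96.7 ± 2.16 FPKM with DMSO and DADA (SD, n = 4; limma, adjusted p = 0.139).

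**Figure D4:**
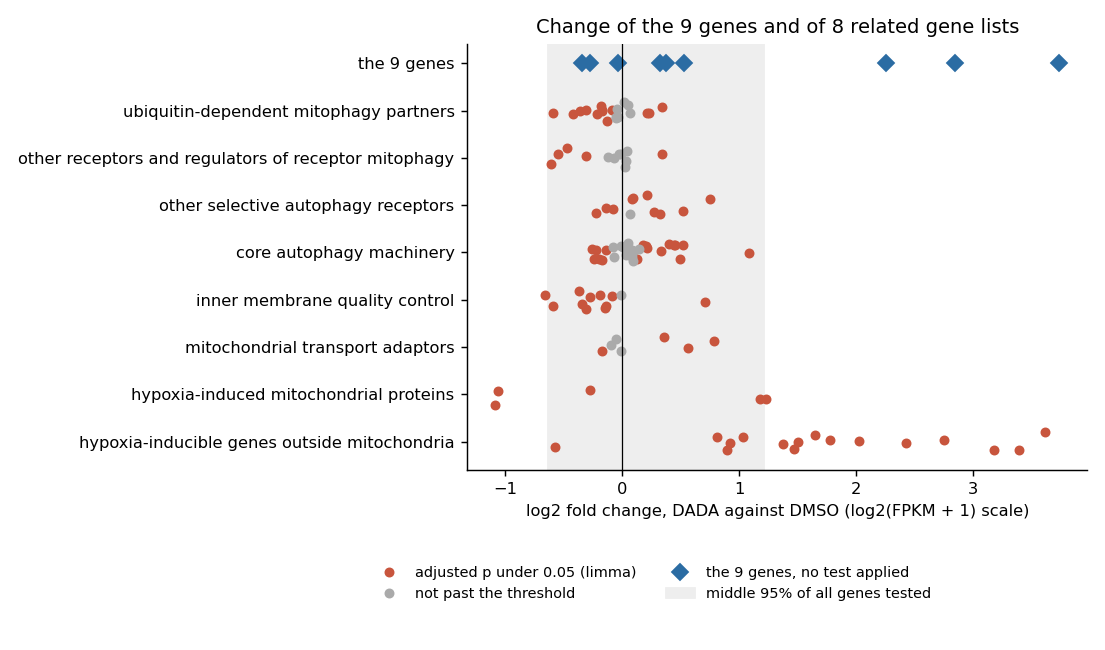
Log2 fold changes, DADA against DMSO, of the 9 genes (blue diamonds, no test) and of the tested genes of 8 related lists (points, red where limma's adjusted p-value was under 0.05, grey elsewhere, spread vertically for clarity); the grey band holds the middle 95% of all 10666 genes tested, from -0.64 to 1.21. *Bnip3*, *Bnip3l* and *Mgarp* lie to the right of the band, together with most genes of the hypoxia-inducible list outside mitochondria.

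Of 12 other selective autophagy receptors, 11 were tested, and 7 were higher and 3 lower, with a median log2 fold change of 0.10. *Calcoco1*, a receptor for the Golgi and endoplasmic reticulum, rose from 6.37 ± 0.527 to 11.4 ± 0.553 FPKM (SD, n = 4; log2 fold change 0.75, limma, adjusted p = 1.60e-06). *Ccpg1*, a receptor of the endoplasmic reticulum, rose from 6.96 to 10.3 FPKM (log2 fold change 0.52), and *Tollip* from 18.3 to 23.1 FPKM (0.32). *Atl3* fell from 41.4 to 35.4 FPKM (log2 fold change -0.22, limma, adjusted p = 2.11e-04). *Ncoa4*, the receptor for ferritin, and *Rtn3* had small log2 fold changes of -0.14 and -0.08. The call of *Ncoa4* was lost without DMSO 2 or DMSO 3 (-0.14 and -0.12) and under TPM scaling (-0.11), and its log2 fold change was -0.09 without DADA 2, with the call kept. That of *Rtn3* was lost without DMSO 1, 2 or 4 or any of the DADA libraries (-0.08 to -0.06), without the filter on low values, without the trend, and under TPM (-0.05), median-ratio (-0.06) and quantile scaling (-0.01).

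The core autophagy machinery was represented by 31 tested genes of 32, of which 12 were higher and 6 lower, with a median log2 fold change of 0.08. Among the LC3 and GABARAP proteins, to which the receptors bind, *Map1lc3b* rose from 13.7 ± 0.422 to 19.6 ± 0.676 FPKM (SD, n = 4; log2 fold change 0.49, limma, adjusted p = 9.86e-07). *Gabarap* rose from 44.5 to 60.9 FPKM (log2 fold change 0.45), *Map1lc3a* from 1.69 to 2.55 FPKM (0.40) and *Gabarapl1* from 45.0 to 49.2 FPKM (0.13). *Gabarapl2* was at 26.0 and 27.0 FPKM (limma, adjusted p = 0.376). The groups overlapped for *Map1lc3a*, *Gabarapl1* (limma, adjusted p = 0.0296) and *Gabarapl2*. *Atg9a*, a membrane protein of the early autophagosome, rose from 4.98 to 7.57 FPKM (log2 fold change 0.52). *Wipi1* was below 1 FPKM in every DMSO library, at 0.0806 to 0.744 FPKM, and at 1.66 to 2.18 FPKM with DADA. It passed the filter through the DADA libraries alone, so it had to differ. *Ulk2* (log2 fold change -0.26), *Atg10* (-0.24) and *Tfeb* (-0.22) had the largest falls. *Tfeb* no longer passed when DMSO 1, DMSO 2, DADA 3 or DADA 4 was left out (log2 fold change -0.23, -0.17, -0.20 and -0.16), without the filter on low values and under TPM scaling.

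PHB2 resides in the inner membrane, and 12 genes of quality control at that membrane or in the compartments beside it were tested. Of these, 1 was higher and 10 lower, with a median log2 fold change of -0.23. *Htra2*, a protease of the intermembrane space, fell from 44.8 ± 2.20 to 28.1 ± 0.592 FPKM (SD, n = 4; log2 fold change -0.66, limma, adjusted p = 1.26e-07). *Oma1*, a stress-activated protease, fell from 10.6 to 8.00 FPKM (log2 fold change -0.36). *Afg3l2*, a subunit of the matrix-facing AAA protease, rose from 39.4 ± 0.714 to 65.0 ± 2.04 FPKM (SD, n = 4; log2 fold change 0.71, limma, adjusted p = 1.25e-08), against the direction of the 10 that fell.

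Of 8 genes listed for the transport of mitochondria, to which MGARP is linked, 7 were tested. Among these, 3 were higher and 1 lower, with a median log2 fold change of -0.01. *Armcx3* rose from 3.44 ± 0.560 to 6.61 ± 0.414 FPKM (SD, n = 4; log2 fold change 0.78, limma, adjusted p = 1.95e-05). *Reep1* rose from 3.04 to 4.97 FPKM (log2 fold change 0.56), and *Trak1*, a kinesin adaptor, from 15.2 to 19.7 FPKM (0.36). *Rhot1*, a Miro GTPase of the outer membrane, fell from 21.2 to 18.7 FPKM (log2 fold change -0.17).

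Genes that hypoxia is known to induce were compared last, since *Bnip3*, *Bnip3l* and *Mgarp* belong among them. Of 8 such genes with mitochondrial products, 5 were tested, and 2 were higher and 3 lower, with a median log2 fold change of -0.27. *Fam162a* rose from 92.5 ± 1.67 to 219 ± 5.52 FPKM (SD, n = 4; log2 fold change 1.23, limma, adjusted p = 8.13e-11) and *Higd1a*, which encodes an inner membrane protein, from 24.0 ± 2.15 to 55.6 ± 1.301 FPKM (1.18). *Hk2*, the hexokinase that docks to mitochondria, fell from 77.0 ± 1.07 to 35.8 ± 0.550 FPKM (SD, n = 4; log2 fold change -1.08, limma, adjusted p = 1.07e-10). *Pdk1*, a kinase that DADA inhibits, had a log2 fold change of -1.06, and *Lonp1*, the matrix protease, of -0.27. *Ndufa4l2* and *Cox4i2* stayed below 1 FPKM in every library, and *Higd1b* was listed at 0.

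Outside mitochondria, 16 of 17 hypoxia-inducible genes were tested, and 15 were higher and 1 lower, with a median log2 fold change of 1.58 against -0.02 over all genes. *Hilpda*, a lipid droplet protein, rose from 8.40 ± 1.08 to 114 ± 3.44 FPKM (SD, n = 4; log2 fold change 3.62, limma, adjusted p = 1.05e-10). *P4ha2*, a collagen prolyl hydroxylase, rose from 1.61 to 26.4 FPKM (log2 fold change 3.39), and *Ankrd37* from 2.80 to 33.2 FPKM (3.18). *Car12*, a carbonic anhydrase, fell from 10.2 to 6.50 FPKM (log2 fold change -0.57, limma, adjusted p = 5.09e-07). *Adm* passed the filter through the DADA libraries alone, and the list was chosen with earlier results of these libraries known, so its count is not independent evidence. *Bnip3* and *Bnip3l*, with log2 fold changes of 2.85 and 2.25, lay within the range of -0.57 to 3.62 of these 16 genes. *Mgarp*, at 3.74, lay just past it. The other 6 of the 9 genes, between -0.34 and 0.53, also lay within that range, which *Car12* extends below 0, so the range does not separate them.

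**Figure D5:**
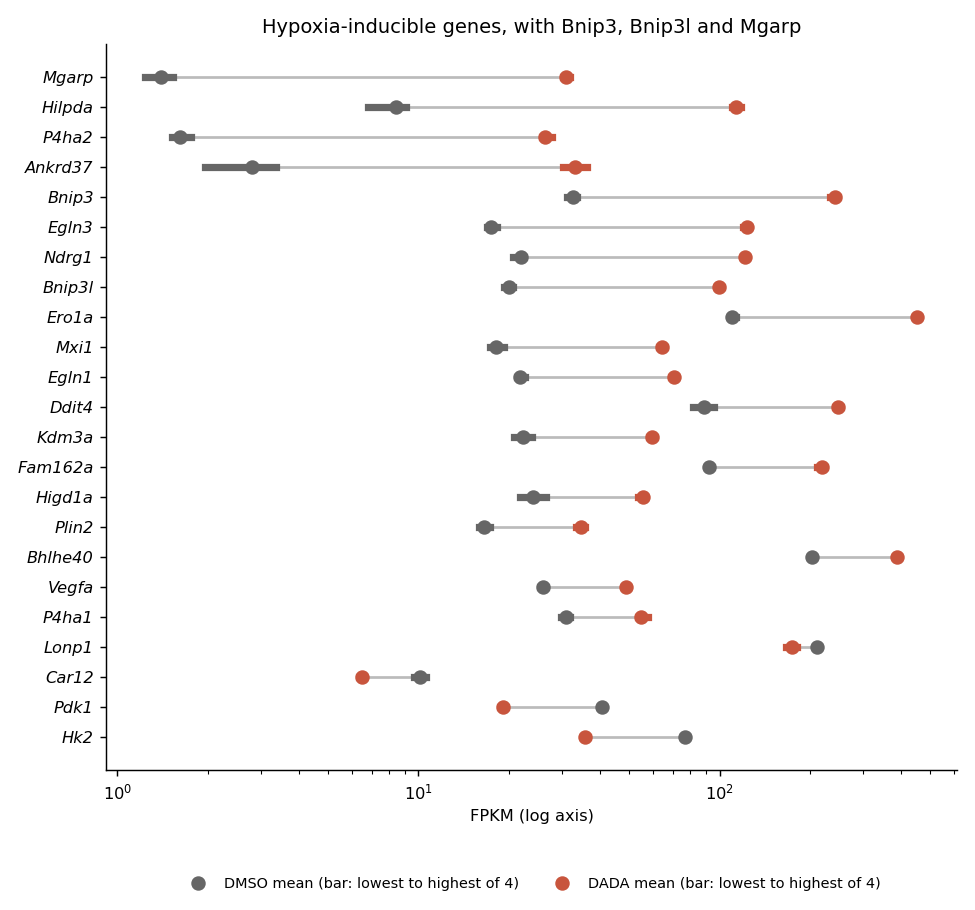
Mean FPKM (points, log axis) with DMSO (grey) and DADA (red) of the tested hypoxia-inducible genes and of *Bnip3*, *Bnip3l* and *Mgarp*, ordered by log2 fold change; thick bars run from the lowest to the highest of 4 libraries, and *Adm* is left out because a DMSO library was listed at 0. *Mgarp* heads the order with 1.40 and 30.9 FPKM, and *Lonp1*, *Car12*, *Pdk1* and *Hk2* at the foot were lower with DADA.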

How the data were processed

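RNA-seq of 8 libraries, 4 with DMSO and 4 with DADA, was analysed from FPKM values that the authors deposited, 1 column per library and none pooled. The reads were paired, of 150 bp. The submitters' processing notes name HISAT2 2.0.5 and StringTie 1.3.3, and the builds GRCm39 and GRCh38 without their roles, so no coordinates are given in the build of the files. Promoter positions and gene overlaps are those of GRCm38 annotations (RefSeq, GENCODE M21). The labels and the methods name different library kits. Samples were grouped by their titles.

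Values were analysed as log2(FPKM + 1), over genes at 1 FPKM or more in at least 4 libraries. The fit was made with limma 3.58.1 in R 4.3.3 (lmFit, eBayes with a mean-variance trend, Benjamini-Hochberg adjustment, threshold 0.05). It was also run on simulated data with far fewer changed genes than were called here, which does not test these calls. The log2(FPKM + 1) scale understates fold changes at low FPKM. FPKM holds no counts. The depth was estimated from 439 to 513 low values per library of genes with a single GENCODE M21 transcript, searched between 10M and 20M fragments. Of these values, 35.35% to 39.82% lay within 0.1 of a whole fragment, so no count test was run. Chance gives 20% only at a depth fixed beforehand. The depth was the best fit to these same values, so their share does not test the estimate. A depth outside the searched range could not be returned.

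The alternatives were a pseudocount of 0.1, no filter, a mean of 5 FPKM, TPM, median-ratio and quantile scaling, no trend, the replicate number as a block, and each library left out. As the source of the replicates is not stated, p-values measure the spread between these libraries, which may be technical.

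The 9 genes and the lists were chosen with earlier results of these data known. Named from each list were the 3 largest rises and falls among called genes. *Phb1*, *Fkbp8*, *Epor*, *Cd79b*, *Bid*, *Mrnip*, *Adm*, the other LC3 and GABARAP genes and the genes below the filter were named after their values were seen. Some genes of the lists are not reported here one by one. All listed genes were found in the table but *Ppptc7*, with 2 matched through an older symbol. *Ulk1*, *Parl*, *Rhot1*, *Rhot2*, *Lonp1* and *Phb1* stand in more than 1 list or role. Figures were drawn with matplotlib 3.10.9 in Python 3.11.15.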

Additional observations from a re-analysis of the deposited data

Results flagged for a closer look

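For 5 of the 94 groups of 4 libraries examined, over the 9 genes and the named genes of the lists, 1 library stood far from the other 3: the distance to its nearest neighbour, divided by the span of all 4 values, passed Dixon's 95% limit. Chance flags about 1 in 20 groups, or 4.7 here, and none of the 5 was in a group of the 9 genes. *Atg9a* was at 4.83 FPKM in DMSO 4 and at 5.02 to 5.05 FPKM in the other DMSO libraries (ratio 0.873). *Ulk2* was at 7.08 FPKM in DMSO 2 and at 7.54 to 7.62 FPKM in the others (0.861). *Atg10* was at 2.61 FPKM in DADA 1 and at 3.03 to 3.11 FPKM in the other DADA libraries (0.851). *Lonp1* was at 213 FPKM in DMSO 3 and at 208 to 209 FPKM in the others (0.909). *P4ha2* was at 27.7 FPKM in DADA 1 and at 25.8 to 26.1 FPKM in the other DADA libraries (0.875).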

How the results depend on the processing

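The direction of the 9 genes was the same under every alternative run, and the number of calls in each of the 8 lists stayed within 1.5 times. Log2 fold changes of the 9 genes that moved by more than the spread between replicates were 2.30 for *Bnip3l*, 4.38 for *Mgarp* and 0.65 for *Optn* with a pseudocount of 0.1, then 2.30 for *Bnip3l*, 3.67 for *Mgarp* and 0.42 for *Optn* under quantile normalization, and 0.35 for *Sqstm1* and -0.31 for *Phb2* under TPM scaling. Over all genes, 6700 to 6848 were called with a library left out, 5741 with a mean of at least 5 FPKM, 7868 without the filter on low values, and 7064 in the fit reported. The balance of calls turned with scaling: 3296 were higher and 3768 lower as reported, 3604 and 3380 under TPM scaling, 3522 and 3544 under median-ratio scaling, and 3005 and 4116 under quantile normalization. The replicate numbers showed no sign of pairing the samples. Deviations of libraries with the same number correlated at -0.120 to 0.0953, and those with different numbers at -0.267 to 0.134. A weak pairing could give such values too and is not excluded. With the number as a replicate block 6995 genes were called, and of the lists only core autophagy changed, with 17 calls in place of 18.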
